A study of Mus musculus with 12 samples.

Results

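The Hedgehog genes described here are the 7 core genes Smo, Ptch1, Hhip, Sufu, Gli1, Gli2 and Gli3, chosen by name from the 55401 genes that the deposited tables list. They were followed in adult mouse neural stem/progenitor cells (aNSPCs) isolated from the forebrain of C57BL/6 mice aged 8 to 10 weeks and analysed by bulk RNA-seq. aNSPCs were grown under proliferating conditions or under differentiation conditions, in which 1 µM retinoic acid and 5 µM forskolin were added, and in each condition with 1 mM NAD+ or without it (Ctrl). This gives 4 groups of 3 samples described as biological repeats, 12 samples in all. No genotype other than the strain is named for any group, and the sources used here do not say which samples came from the same mice. The treatment field of the labels calls all 12 samples untreated, so the NAD+ groups follow the sample titles.

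Hedgehog signalling starts when a secreted ligand (Sonic, Indian or Desert hedgehog) binds the receptor Patched and so relieves Smoothened of its inhibition. Smoothened then gathers in the primary cilium and frees the Gli transcription factors from Sufu and from phosphorylation by protein kinase A, which otherwise turns them, Gli3 above all, into repressors. In the adult forebrain the pathway is known for maintaining neural stem cells, and Gli1, Ptch1 and Hhip are widely used as readouts of its activity because active Gli proteins raise their transcription. Forskolin activates adenylyl cyclase and so raises cAMP, the activator of protein kinase A, and cAMP response elements are the DNA sequences through which CREB-family factors act on genes.

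The genes lie on 6 mouse chromosomes of mm10, by the GENCODE M21 annotation. Smo (ENSMUSG00000001761) is on chromosome 6 from 29735503 to 29761365, and Ptch1 (ENSMUSG00000021466) on chromosome 13 from 63508328 to 63573598. Hhip (ENSMUSG00000064325) is on chromosome 8 from 79965851 to 80058006, and Sufu (ENSMUSG00000025231) on chromosome 19 from 46396896 to 46488804. Gli1 (ENSMUSG00000025407) is on chromosome 10 from 127329882 to 127341974, Gli2 (ENSMUSG00000048402) on chromosome 1 from 118834132 to 119053619, and Gli3 (ENSMUSG00000021318) on chromosome 13 from 15463235 to 15730026. All are protein-coding and the values below cover the exons of the whole gene. Exon bases were shared with an antisense gene by Gli1 (Arhgap9 and Gm47200), Gli3 (Gm6556) and Hhip (Gm27820), and the strand setting of the counting is not given in the sources used here. These partners were listed at a mean FPKM of at most 0.0067 in every group, except Gm6556, which lay between 0.137 and 0.31.

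RefSeq (GRCm38.p6) promoter sequence was found for 6 of the 7 genes, and none was used for Gli1. The 250 bases before the transcription start are shown for Hhip and Sufu. Both were among the 3 genes with lower values in every NAD+ sample than in every Ctrl sample under differentiation conditions. Forskolin was added to the Ctrl and NAD+ samples of that condition alike, and a part of cAMP in these values was not tested. Capitals mark the cAMP response element TGACGTCA and its shorter form TGACG (on either strand CGTCA). The Hhip stretch is chr8:80058009-80058258 on the minus strand and the Sufu stretch is chr19:46396646-46396895 on the plus strand, both written 5′ to 3′.
Hhip: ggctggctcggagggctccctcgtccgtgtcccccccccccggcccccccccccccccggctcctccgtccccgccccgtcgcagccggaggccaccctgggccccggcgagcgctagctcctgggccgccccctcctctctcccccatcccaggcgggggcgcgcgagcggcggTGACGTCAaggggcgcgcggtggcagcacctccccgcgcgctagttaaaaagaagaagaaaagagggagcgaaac
Sufu: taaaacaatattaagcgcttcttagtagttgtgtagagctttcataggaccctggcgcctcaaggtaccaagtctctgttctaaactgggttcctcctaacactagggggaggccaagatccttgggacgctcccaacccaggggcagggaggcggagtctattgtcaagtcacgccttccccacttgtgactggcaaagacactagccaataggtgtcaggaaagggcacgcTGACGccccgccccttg
The full element TGACGTCA was found on either strand in the window from 250 bases before to 50 bases after the start in Hhip alone of the 6 genes, 75 bases before the start, and in 1.79% of 32851 RefSeq promoters of that length. The shorter TGACG, which the full element contains, was found in Hhip, in Sufu (17 bases before the start) and in Gli3 (34 bases after it), and in 20.8% of all promoters. The Gli motif GACCACCCA was found in 0 of the 6 windows and in 0.253% of all promoters, and the retinoic acid response element, AGGTCA repeated after 5 bases, in 0 of the 6 and in 0.00913% of all. A single window per gene was searched. For Ptch1 it was chr13:63565686-63565985 on the minus strand, and for Gli3 chr13:15463473-15463772 on the plus strand. Both windows lie inside the gene spans given above, so the annotated 5′ ends of Ptch1 and Gli3 were not searched. The motifs were searched after the values were seen, and a match describes the letters only.

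Expression is given in FPKM, in which the fragments of a gene are divided by its length and by the size of the library, so levels of different genes can be set side by side. The deposited values are whole multiples of 0.01, and the depth of the samples is unknown, so no counting error can be given. Per sample the FPKM values summed to between 308828 and 363330, which is no measure of depth. The highest sum belonged to proliferating Ctrl sample 1, which stood apart from the other 2 Ctrl samples of its group: it correlated with them across genes at r of 0.958 and 0.960, against 0.965 to 0.978 for every other pair within a group, and its level of Mki67, a marker of dividing cells, was 19.8 against 39.7 and 40.0. Where leaving it out changed a call or moved a value of the Hedgehog genes by over 1.5 times, the value without it is given as well. The defining markers of neural stem/progenitor cells were present (7 of 7 with a mean of at least 1 in every group), and those of microglia and endothelium summed to at most 0.33 and 0.86 in any sample. When their mean FPKM was at least 0.1, genes entered a limma fit of log2(FPKM + 0.1), which understates changes at low levels, and a gene rose or fell when its Benjamini-Hochberg adjusted p over all tested genes was under 0.05. As a further rule, DEGs were genes with an unadjusted p under 0.05 and a ratio of the mean FPKM above 2 in either direction.

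The receptor-level genes were the most abundant of the 7 and the Gli factors were low in every group. On the FPKM scale, Smo, the signal-transducing membrane protein, led with 20.1, 22.1 and 21.8 in the 3 proliferating Ctrl samples. Ptch1, the receptor that inhibits Smoothened, followed with 9.50, 13.9 and 12.3, and Sufu, the cytoplasmic inhibitor of Gli proteins, with 6.43, 6.74 and 6.67. The order Smo, Ptch1, Sufu held in all 4 groups, and the ranges of these neighbours did not overlap in any of them. Gli2, the main activator, had 1.08, 1.12 and 0.80, and Gli3, the main repressor, had 0.47, 1.12 and 1.01. The ranges of Gli2 and Gli3 overlapped in 3 of the 4 groups, all but the differentiation NAD+ group. Hhip, a membrane protein that binds and sequesters Hedgehog ligands, had 0.31, 0.38 and 0.35. Gli1, the Gli factor that depends on pathway activity for its own transcription, was lowest at 0.04, 0.03 and 0.05. The mean of Ptch1 was thus 11.9 ± 2.2 (SD, n = 3) where that of Gli1 was 0.040 ± 0.010 (SD, n = 3), although both are known Gli targets.

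**Figure D1:**
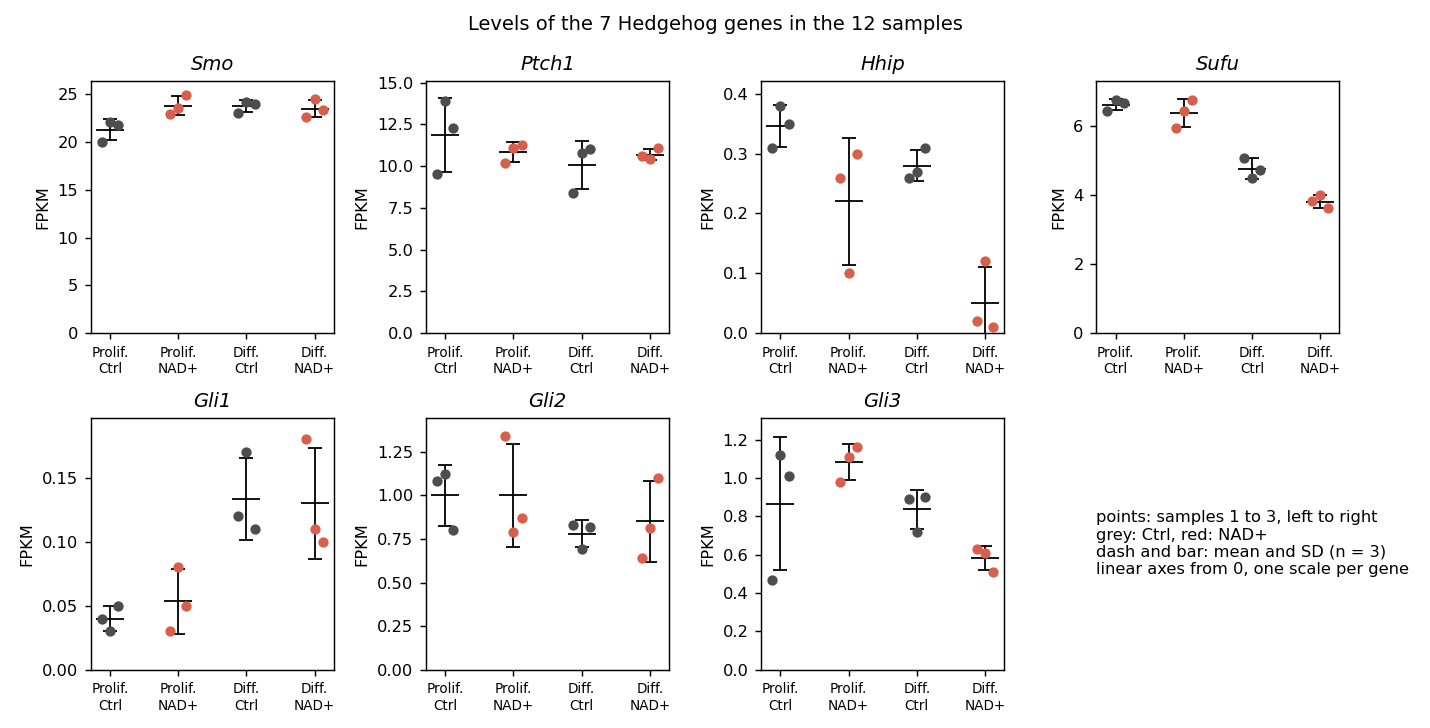
FPKM of the 7 Hedgehog genes in the 12 samples, one panel per gene on its own linear axis from 0; points are samples 1 to 3 (grey Ctrl, red NAD+), and the dash and bar give the mean and SD (n = 3). Hhip and Gli3 were lower in the NAD+ than in the Ctrl samples under differentiation conditions without overlap, Sufu was lower in all 6 differentiating than in all 6 proliferating samples, and Gli1 was above 0.09 only in differentiating samples.

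Under proliferating conditions, 0 of the 6 Hedgehog genes tested passed the threshold with NAD+, and Smo and Hhip were the genes whose groups did not overlap. Smo was higher in every NAD+ sample (23.0, 23.6 and 24.9) than in every Ctrl sample, a mean of 23.8 ± 0.98 against 21.3 ± 1.1 (SD, n = 3 each). The log2 fold change of Smo was 0.16 (SE 0.08, 95% interval -0.03 to 0.35, limma adjusted p = 0.380). Hhip was lower in every NAD+ sample (0.26, 0.10 and 0.30) than in every Ctrl sample, with a log2 fold change of -0.54 (SE 0.33, 95% interval -1.33 to 0.25, limma adjusted p = 0.473). The other tested genes overlapped between the groups. Ptch1 was 10.2, 11.1 and 11.3 with NAD+, inside the Ctrl range. Sufu was 5.95, 6.44 and 6.76, Gli2 1.34, 0.79 and 0.87, and Gli3 0.98, 1.11 and 1.16. Their log2 fold changes were -0.11 for Ptch1, -0.05 for Sufu, -0.02 for Gli2 and 0.36 for Gli3, with limma adjusted p-values from 0.597 to 0.976. Without proliferating Ctrl sample 1, whose Gli3 value was the lowest of the group, the log2 fold change of Gli3 was 0.02, that of Ptch1 was -0.27 (limma unadjusted p = 0.0280, limma adjusted p = 0.223) and that of Gli2 turned to 0.04, and none passed the adjusted threshold. Gli1 was 0.03, 0.08 and 0.05 with NAD+ and lay under the limit on low values, so it was not tested here.

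Of the 6 tested genes, 0 had an adjusted or an unadjusted p under 0.05 by limma, and 0 were DEGs. Over the 18597 tested genes, 0.145% passed the adjusted threshold, 15.4% had an unadjusted p under 0.05 and 3.01% were DEGs. The groups did not overlap for 1 gene that was higher (Smo) and 1 that was lower (Hhip), against 15.5% and 8.59% of all tested genes. The median log2 fold change was -0.04 over the 6 genes and 0.07 over all tested genes. The summed FPKM of 8 oligodendrocyte-lineage markers was 923 to 1073 in Ctrl and 729 to 749 with NAD+, that of 8 astrocyte markers 1117 to 1196 and 911 to 1066, and that of the 7 neural stem/progenitor markers 2557 to 2807 and 1560 to 2072. Of the last sum Fabp7, a fatty acid-binding protein of radial glia, made up most, with a mean of 2107 in Ctrl and 1317 with NAD+. In these lists 0 tested markers passed the adjusted threshold. The sums of dividing-cell markers overlapped (214 to 250 in Ctrl and 226 to 297 with NAD+). So did those of neuron markers (22.5 to 33.3 and 29.1 to 31.9) and ependymal markers (9.98 to 11.8 and 10.7 to 11.4). The part of these markers in the values of the Hedgehog genes was not tested.

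Under differentiation conditions, 3 of the 7 genes, Hhip, Sufu and Gli3, were lower in every NAD+ sample than in every Ctrl sample, and 0 passed the adjusted threshold. Hhip had the largest log2 fold change of the 7, from levels under 0.4 FPKM. It was 0.26, 0.27 and 0.31 in Ctrl and 0.02, 0.12 and 0.01 with NAD+. The mean was 0.280 ± 0.026 in Ctrl and 0.050 ± 0.061 with NAD+ (SD, n = 3 each), and the NAD+ samples lay at 1, 2 and 12 steps of the 0.01 grid of the file. The log2 fold change of Hhip was -1.41 (SE 0.36, 95% interval -2.27 to -0.55, limma unadjusted p = 0.0064, adjusted p = 0.0697), over the 7 other filters, scalings and fits tried the adjusted p ranged from 0.0576 to 0.121, and without single samples from 0.0536 to 0.180. The size of this value depends on the number added before taking logs, from -0.29 with 1 added to -2.76 with 0.01 added. Hhip met the DEG rule, with a mean FPKM 0.179 times that of Ctrl.

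Sufu, which holds Gli proteins in the cytoplasm, was 5.08, 4.49 and 4.71 in Ctrl and 3.81, 3.99 and 3.62 with NAD+, a mean of 4.76 ± 0.30 against 3.81 ± 0.19 (SD, n = 3 each). Its log2 fold change was -0.31 (SE 0.08, 95% interval -0.51 to -0.12, limma unadjusted p = 0.0077, adjusted p = 0.0774). With a minimum mean FPKM of 1, which left 12671 genes to adjust over, the adjusted p of Sufu was 0.0493, the lowest of the 8 other filters, scalings and fits, which ranged up to 0.151, and without single samples it ranged from 0.111 to 0.207. Gli3 was 0.89, 0.72 and 0.90 in Ctrl and 0.63, 0.61 and 0.51 with NAD+. Its log2 fold change was -0.45 (SE 0.17, 95% interval -0.87 to -0.04, limma unadjusted p = 0.0355, adjusted p = 0.173). Its antisense partner Gm6556 had means of 0.31 in Ctrl and 0.137 with NAD+, and reads of the pair cannot be told apart without the strand setting.

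The other 4 genes overlapped between Ctrl and NAD+ under differentiation conditions. Smo was 23.1, 24.2 and 24.1 in Ctrl and 22.7, 24.5 and 23.4 with NAD+, and its log2 fold change of -0.02 had a 95% interval from -0.14 to 0.11. Ptch1 was 8.40, 10.8 and 11.1 in Ctrl and 10.6, 10.4 and 11.1 with NAD+, with a log2 fold change of 0.10 (95% interval -0.17 to 0.36). The narrow intervals of these abundant receptor-level genes contrast with those of the low Gli factors. Gli2 was 0.83, 0.69 and 0.82 in Ctrl and 0.64, 0.81 and 1.10 with NAD+ (log2 fold change 0.09, 95% interval -0.43 to 0.60). Gli1 was 0.12, 0.17 and 0.11 in Ctrl and 0.18, 0.11 and 0.10 with NAD+ (log2 fold change -0.03, 95% interval -0.74 to 0.68). The limma adjusted p-values of these 4 genes were 0.650 or higher, and the sign of Smo and of Gli1 turned under both other scalings between samples.

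By the adjusted p, 0 of the 7 genes were called where 6.92% of the 19611 tested genes were, and 3 of the 7 had an unadjusted limma p under 0.05, as did 24.2% of all tested genes. By the DEG rule, 1 of the 7 was called, lower, where 2.69% of all tested genes were. The 3 genes without overlap, all lower, stand beside 21.1% of all tested genes that were lower without overlap. The exact permutation test of each gene could not go below p = 0.10, the smallest value that 3 samples against 3 allow, and Hhip, Sufu and Gli3 were at 0.10.

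**Figure D2:**
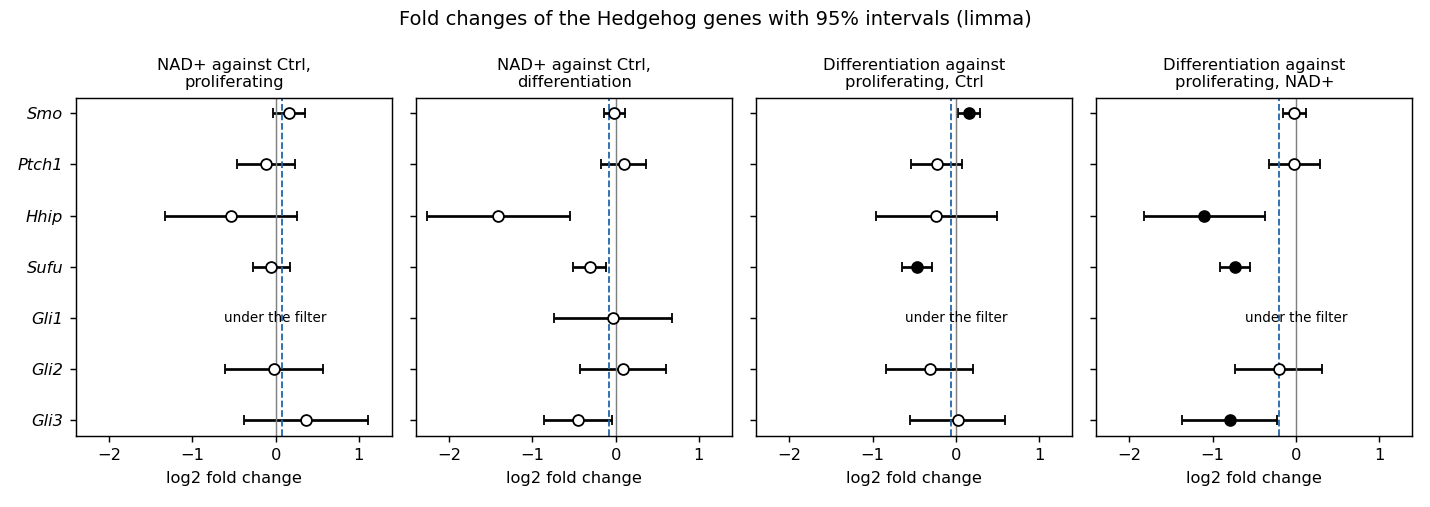
log2 fold changes of the tested Hedgehog genes (points) with 95% intervals from limma in 4 comparisons; filled points had an adjusted p under 0.05, the blue dashed line is the median of all tested genes, and Gli1 lay under the limit on low values in 3 panels. For NAD+ against Ctrl no point is filled, and the intervals of Hhip, Sufu and Gli3 lie below 0 under differentiation conditions only.

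Other cell markers moved with these values under differentiation conditions. The summed FPKM of 8 oligodendrocyte-lineage markers was 340 to 346 in Ctrl and 250 to 272 with NAD+, with 7 of 7 tested markers lower and 1 fallen. Of all 19611 tested genes, 12119 were lower. The sum of 8 astrocyte markers was 1644 to 1766 in Ctrl and 1996 to 2108 with NAD+, with 3 risen and 2 fallen, and that of 6 pericyte or fibroblast markers was 0.42 to 0.68 and 1.04 to 1.48. Of the 7 neural stem/progenitor markers, 1 rose, 3 fell and 5 were lower without overlap, while their sums overlapped (743 to 833 in Ctrl and 739 to 821 with NAD+). Mitochondrially encoded genes took 28.9% to 29.8% of the summed FPKM in Ctrl and 29.5% to 33.2% with NAD+. Their part in the values of Hhip, Sufu and Gli3 was not tested, and in bulk samples fewer cells of a type and less RNA per cell cannot be told apart.

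Whether the NAD+ effect differed between the conditions was tested as a contrast over all 12 samples, differentiation minus proliferating. Of the 6 tested genes, 0 passed the adjusted threshold, where 0.467% of the 19498 tested genes did, and 2 had an unadjusted limma p under 0.05 (15.5% of all tested genes). These were Gli3, with a difference of -0.82 on the log2 scale (95% interval -1.63 to -0.01, limma adjusted p = 0.319), and Sufu, with a difference of -0.26 (95% interval -0.52 to -0.01, limma adjusted p = 0.314). Without proliferating Ctrl sample 1, the difference of Gli3 was -0.47 and that of Sufu -0.24, both then with an unadjusted p above 0.05. That of Ptch1 went from 0.21 to 0.36 without this sample (limma unadjusted p = 0.0424, limma adjusted p = 0.292). The median difference of all tested genes was -0.16 as deposited and -0.01 after median-ratio scaling, and after that scaling the difference of Gli3 was -0.69 and that of Sufu -0.11. For Hhip the difference was -0.87 (95% interval -1.90 to 0.16). Thus a lower level of these genes with NAD+ under differentiation conditions was not shown to be particular to that condition.

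Differentiation itself was compared with proliferation in the Ctrl and in the NAD+ samples. These fits joined the tables deposited for each condition, so a difference between the tables and the condition cannot be told apart, and they share samples with the NAD+ comparisons above. The 7 dividing-cell markers all fell in both comparisons, their sum going from between 214 and 297 in proliferating samples to between 20.7 and 23.9 in differentiating ones. Sufu was lower in every differentiating sample than in every proliferating sample. In Ctrl its mean went from 6.61 ± 0.16 to 4.76 ± 0.30 (SD, n = 3 each), a log2 fold change of -0.47 with an SE of 0.08 (limma adjusted p = 0.000559). In the NAD+ samples it went from 6.38 ± 0.41 to 3.81 ± 0.19 (SD, n = 3 each), a log2 fold change of -0.73 with an SE of 0.08 (limma adjusted p = 1.71e-05). Sufu passed the test under all 8 other filters, scalings and fits and without each of the 12 samples in both comparisons.

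Smo rose by a log2 fold change of 0.16 in Ctrl (95% interval 0.02 to 0.29, limma adjusted p = 0.0487), from 21.3 ± 1.1 to 23.8 ± 0.63 (SD, n = 3 each). This call was lost without a filter on low values (limma adjusted p = 0.0583) and without 10 of the 12 samples taken out singly, among them proliferating Ctrl sample 1 (log2 fold change 0.11). In the NAD+ samples the log2 fold change of Smo was -0.02 (95% interval -0.16 to 0.12), and it was 0.26 after median-ratio scaling and 0.44 after quantile normalization, both with limma adjusted p-values under the threshold (0.00205 and 6.63e-05, in a range up to 0.893 over the alternatives). Over all tested genes, the median log2 fold change of differentiation against proliferation was -0.06 in Ctrl and -0.20 in the NAD+ samples, and 0.06 and 0.05 after median-ratio scaling. Beside these medians, the value of Smo lay above and that of Sufu below in both comparisons, as deposited and after median-ratio scaling.

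Gli3 and Hhip fell with differentiation in the NAD+ samples. Gli3 went from 1.08 ± 0.093 to 0.583 ± 0.064 (SD, n = 3 each), a log2 fold change of -0.79 with an SE of 0.26 (limma adjusted p = 0.0215), and the call was lost after median-ratio scaling (log2 fold change -0.54, limma adjusted p = 0.0768, the highest of its alternatives) and without differentiation NAD+ sample 3 or proliferating NAD+ sample 2 or 3 (limma adjusted p = 0.0681, 0.0556 and 0.0628). Hhip went from 0.220 ± 0.106 to 0.050 ± 0.061 (SD, n = 3 each), a log2 fold change of -1.10 with an SE of 0.33 (limma adjusted p = 0.0136), although the values of single samples overlapped, and the call was lost without differentiation NAD+ sample 3 or proliferating NAD+ sample 3 (limma adjusted p = 0.0544 and 0.0591). In Ctrl, neither was called: the log2 fold change was 0.02 for Gli3 (95% interval -0.55 to 0.60) and -0.23 for Hhip (95% interval -0.96 to 0.49). Without proliferating Ctrl sample 1 the value of Gli3 in Ctrl turned to -0.32, still not called. Gli2 passed the test in neither comparison, with log2 fold changes of -0.31 in Ctrl and -0.21 in the NAD+ samples.

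For Ptch1 and Gli1, both readouts of Hedgehog activity, the values with differentiation are given side by side. The log2 fold change of Ptch1 was -0.23 in Ctrl (95% interval -0.53 to 0.07, limma adjusted p = 0.178) and -0.02 in the NAD+ samples (95% interval -0.32 to 0.28). Without proliferating Ctrl sample 1, Ptch1 fell in Ctrl by 0.38 on the log2 scale (limma adjusted p = 0.0177, the lowest over the samples left out, which ranged up to 0.544). After median-ratio scaling and quantile normalization the NAD+ value of Ptch1 turned to 0.26 and 0.39, of which the second passed the test (limma adjusted p = 0.0275, in a range up to 1 over the alternatives). Gli1 was between 0.03 and 0.08 in the 6 proliferating samples and between 0.10 and 0.18 in the 6 differentiating ones, without overlap. Its mean over the 12 samples was under the limit on low values. Fitted without that limit, it had a log2 fold change of 0.73 in Ctrl (limma adjusted p = 0.0147) and 0.58 in the NAD+ samples (limma adjusted p = 0.0427). Gli1 values of this size are 3 to 18 steps of the 0.01 grid, and the depth behind them is unknown.

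In Ctrl, 2 of the 6 tested genes passed the adjusted threshold where 56.7% of the 19498 tested genes did, and the groups did not overlap for 2 of the 6 where they did not for 61.7% of all tested genes. In the NAD+ samples 3 of the 6 passed, all falls, where 58.4% of all did (1 rise and 2 falls after median-ratio scaling, 2 and 3 after quantile normalization), and 2 of the 6 did not overlap, where 66.3% of all did not. By the DEG rule, 0 of the 6 were called in Ctrl (31.1% of all) and 1 in the NAD+ samples (Hhip, 33.4% of all).

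Beyond the 7 core genes, 58 further genes of the pathway were followed in 5 groups by role: 9 genes for ligands, their processing and release, 5 at the level of receptors, 20 for Gli phosphorylation and turnover, 14 for the ciliary machinery, and 10 target genes. The ligands were low. Shh and Ihh, the ligands Sonic and Indian hedgehog, were at most 0.09 and 0.07 in every sample, and Dhh, Desert hedgehog, was 0.06 to 0.88 in proliferating samples and 0 to 0.01 in differentiating ones. Among the co-receptors that help ligands bind Patched, Gas1 was the most abundant at 12.6 to 39.2, followed by Boc at 2.10 to 3.74 and Cdon at 0.30 to 2.14. Of the targets, the cyclins Ccnd1 and Ccnd2 reached 171 and 71.8 in proliferating samples and at most 3.32 and 1.58 in differentiating ones, and Mycn, a transcription factor of progenitor growth, was at most 0.44. The targets Nkx6-1 and Foxa2, factors of the ventral neural tube named after their values were seen, were listed at 0 in all 12 samples. Gas1, Ccnd1, Ccnd2 and Bcl2 share exon bases with genes on the opposite strand, which were listed at a mean FPKM of at most 1.39 in any group.

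**Figure D3:**
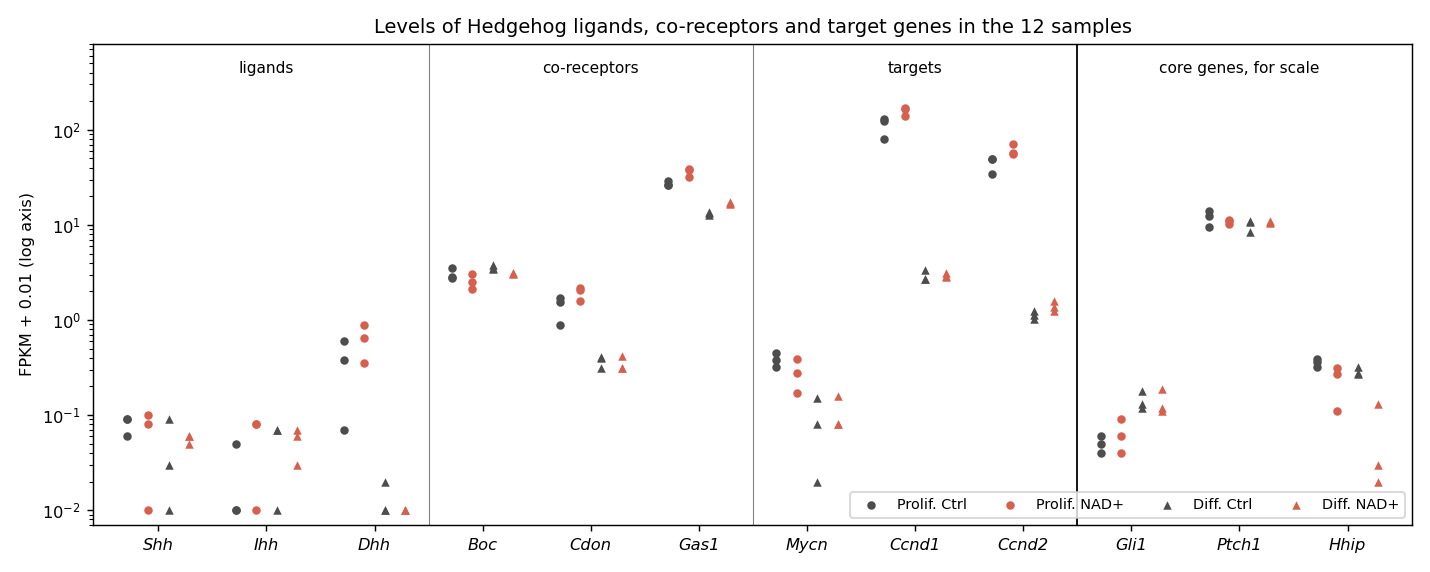
FPKM + 0.01 on a log axis for ligands, co-receptors and target genes of the Hedgehog pathway in the 12 samples, with Gli1, Ptch1 and Hhip for scale; circles are proliferating and triangles differentiating samples, grey Ctrl and red NAD+. Shh and Ihh lie at most at 0.09 before the 0.01 is added in every sample, and Ccnd1, Ccnd2, Cdon, Gas1 and Dhh are lower in all 6 differentiating than in all 6 proliferating samples.

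With NAD+ under proliferating conditions, 0 of the 51 tested pathway genes passed the adjusted threshold. The 14 ciliary genes, which build and regulate the compartment of Hedgehog transduction, had positive log2 fold changes in 14 of 14. These ran from 0.03 to 0.64 with a median of 0.28, beside a median of 0.07 over all tested genes. Of all 18597 tested genes, 11104 were positive. In 10 of the 14 the NAD+ values lay above the Ctrl values without overlap, as in 15.5% of all tested genes. After median-ratio scaling, and also without proliferating Ctrl sample 1, 13 of the 14 were positive, with medians of 0.22 and 0.20. Over all tested genes, 9538 of 18561 and 10574 of 18590 were then positive. The other groups had medians from -0.10 for the 8 tested targets to 0.19 for the 5 tested genes of ligands, processing and release. Without proliferating Ctrl sample 1 these medians were -0.32 and 0.09, and that of the 4 tested co-receptors went from 0.18 to -0.04.

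Under differentiation conditions, 6 of the 48 tested pathway genes passed the adjusted threshold (6.92% of all tested genes), 3 of which rose and 3 fell. Nkx2-2, a ventral patterning factor and target also expressed in oligodendrocyte progenitors, was 16.6, 15.3 and 15.0 in Ctrl and 10.5, 9.73 and 8.29 with NAD+. Its log2 fold change was -0.72 (SE 0.10, limma adjusted p = 0.0130), beside the lower sum of oligodendrocyte-lineage markers given above. The antisense gene Nkx2-2os, which shares 278 exon bases with Nkx2-2, had means of 0.837 in Ctrl and 0.35 with NAD+, and without a known strand setting reads of the pair cannot be told apart. Prkacb, a catalytic subunit of protein kinase A, was 13.3, 13.7 and 13.4 in Ctrl and 11.6, 10.8 and 10.2 with NAD+, a fall of 0.31 on the log2 scale with a limma adjusted p of 0.0417. Kif3a, a subunit of the kinesin that builds cilia, was 41.6, 36.8 and 40.1 in Ctrl and 34.0, 31.5 and 31.4 with NAD+, a fall of 0.29 on the log2 scale with a limma adjusted p of 0.0491. Thus the 3 falls lay in different roles, and none of these genes overlapped between the groups.

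The 3 rises under differentiation conditions were also spread over the roles. Gas1 was 13.4, 13.6 and 12.6 in Ctrl and 16.8, 16.5 and 17.4 with NAD+, a log2 fold change of 0.35 with an SE of 0.05 (limma adjusted p = 0.0188). Tulp3, which brings receptors into the cilium, was 6.53, 5.87 and 5.82 in Ctrl and 7.35, 8.15 and 7.96 with NAD+ (log2 fold change 0.36, limma adjusted p = 0.0452). Bcl2, an inhibitor of apoptosis, was 2.29, 2.54 and 2.87 in Ctrl and 3.53, 4.23 and 4.61 with NAD+ (log2 fold change 0.66, limma adjusted p = 0.0376). After median-ratio scaling or quantile normalization, 3 pathway genes rose and 1 fell in place of 3 and 3, the falls of Prkacb and Kif3a being lost. Without a filter on low values 2 pathway genes were called, with the replicate number as a block also 2, and without moderation of the variance 1. Leaving out single samples left between 0 and 3 calls, with 0 without differentiation Ctrl sample 1 or 2 and 1 without differentiation Ctrl sample 3 or NAD+ sample 3.

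**Figure D4:**
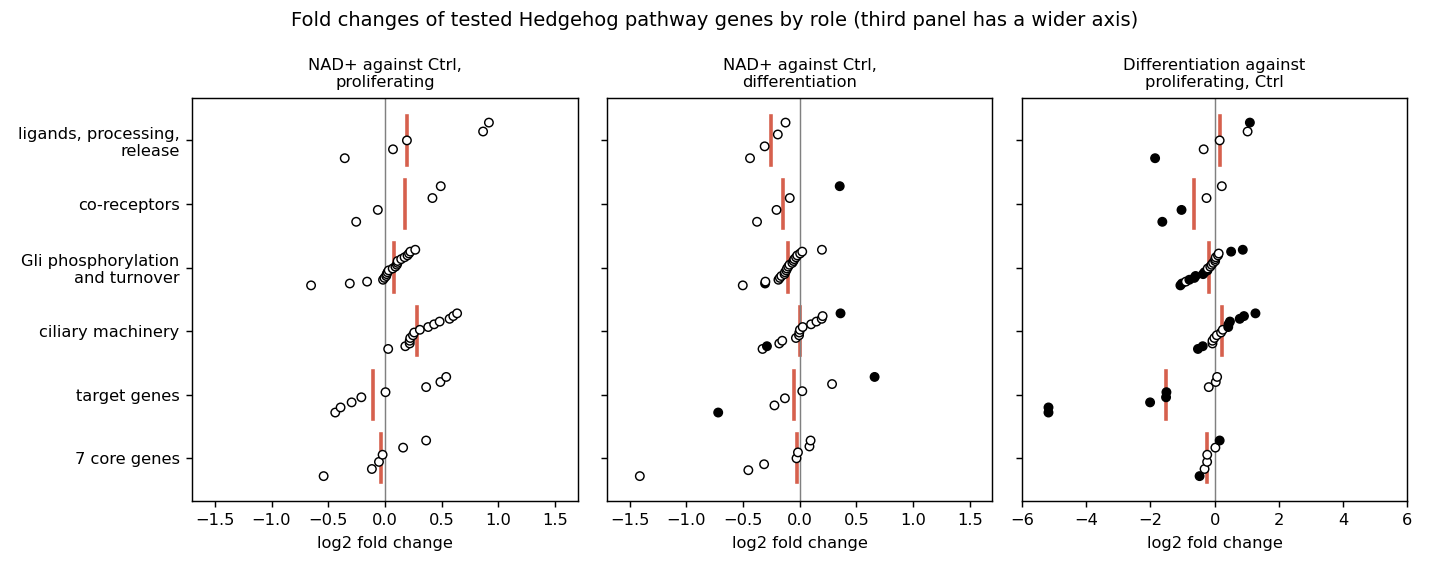
log2 fold changes of the tested Hedgehog pathway genes by role in 3 comparisons; each point is a gene, filled when its limma adjusted p was under 0.05, and the red bar is the median of the group. The ciliary genes lie above 0 in the left panel without a filled point, 6 pathway genes are filled in the middle panel, and the cyclins lie near -5 in the right panel, whose axis is wider.

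With differentiation in Ctrl, 27 of the 51 tested pathway genes passed, 9 of which rose and 18 fell. Of all tested genes 56.7% passed, with 4884 risen and 6164 fallen. The split of the pathway genes was 12 and 16 after median-ratio scaling, 16 and 15 after quantile normalization, and 9 and 19 without proliferating Ctrl sample 1. Among genes whose mean FPKM reached 1, the largest falls were in the targets Ccnd1 (log2 fold change -5.17), Ccnd2 (-5.17) and Olig2 (-1.50), a factor of the oligodendrocyte lineage, and in Gnas (-1.07), the stimulatory G protein that activates adenylyl cyclase. The dividing-cell markers fell along with the cyclins, and their part in these values was not tested. Of the 8 tested targets, 5 fell and 0 rose. The largest rises were in Kif3a (1.27), Efcab7 (0.91), a ciliary regulator of Smoothened, Ulk3 (0.88), a kinase of Gli proteins, and Dync2h1 (0.78, or 0.44 without proliferating Ctrl sample 1), the motor of return transport in cilia. Of the 14 ciliary genes, 6 rose and 2 fell in Ctrl, and in the NAD+ samples 1 rose and 5 fell. The latter split was 7 and 2 after median-ratio scaling, 6 and 2 after quantile normalization, and 2 and 6 without proliferating Ctrl sample 1. The sum of 6 ependymal markers, genes of multiciliated cells, was 9.98 to 11.8 in proliferating and 27.2 to 32.8 in differentiating samples, whose part in the ciliary genes' values was not tested. Of the co-receptors, Gas1 (-1.03) and Cdon (-1.63) fell, and Boc had a log2 fold change of 0.23 that did not pass (limma adjusted p = 0.189). In the NAD+ samples 27 of the 51 passed as well, with 4 risen and 23 fallen. Of all tested genes 58.4% passed there, with 4050 risen and 7336 fallen. The split of the pathway genes was 14 and 16 after median-ratio scaling, 14 and 17 after quantile normalization, and 6 and 26 without proliferating Ctrl sample 1.

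The genes whose levels followed Gli1 and Hhip most closely were found by Pearson's correlation of log2(FPKM + 0.1) over the 12 samples among the 12928 genes whose mean FPKM reached 1. The 12 values share differences between the groups, so these correlations describe the groups more than single samples. For Gli1 they were Ajm1 (r = 0.945), Gm4673 (r = 0.944) and Cebpb (r = 0.933). The mean FPKM of Cebpb, a CCAAT/enhancer-binding transcription factor, was 2.51 and 4.68 in the proliferating Ctrl and NAD+ groups and 15.7 and 21.2 in the differentiation groups. For Hhip they were Septin8 (r = 0.936), Rab22a (r = 0.935) and Hddc3 (r = 0.934). The mean FPKM of Rab22a, a small GTPase of endosomes, was 12.3 and 9.67 in the proliferating Ctrl and NAD+ groups and 8.92 and 4.18 in the differentiation groups. These genes were picked for following Gli1 or Hhip, so a shared pattern over the groups is no separate result.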

How the data were processed

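The authors aligned clean reads with Hisat2 v2.0.5 (genome mm10), counted those that mapped uniquely with FeatureCounts v2.0.1 and deposited FPKM values for every sample, with the conditions in separate tables. How the counts became FPKM, and the strand setting, are not given in the sources used here. Per the file headers, the tables also hold the authors' fold change (ratio), its log2 value, and a p-value and q-value for NAD+ against Ctrl, which were not used. All 12 FPKM columns entered the fits, and no other column of sample values exists in the tables.

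The 7 Hedgehog genes and the lists of pathway genes and markers were chosen with earlier results of these data known. Named pathway genes were those with an adjusted p under 0.05 in a NAD+ comparison, the 4 largest rises and falls with differentiation in Ctrl, and Shh, Ihh, Dhh, Boc, Cdon, Gas1, Mycn, Ccnd1 and Ccnd2 in every case. One further gene that this rule names is not reported here. The deposited FPKM values were transformed to log2(FPKM + 0.1). A mean FPKM of 0.1 or more over the fitted samples was required, and the genes were tested with limma 3.58.1 in R 4.3.3 (moderated variance with a trend, two-sided, Benjamini-Hochberg over all tested genes), in 6 samples for NAD+ against Ctrl and in 12 for the other contrasts. The threshold was an adjusted p under 0.05. For the DEG rule, FPKM values of 0 were set to 0.0001. The limma p-values set a difference against the spread between the 3 samples within groups, pooled over the groups fitted and moderated over genes. Exact permutation tests were two-sided. The alternatives were 1 or 0.01 added, no filter or a minimum mean FPKM of 1, median-ratio scaling, quantile normalization, the replicate number as a block, no moderation, and leaving out each sample. On simulated data with 200 changed genes, the code recovered 89.5% under proliferating and 88% under differentiation conditions. It made 18 and 14 false calls there, and called 0 with nothing changed. With changed genes, the false calls were a larger share of all calls than the 0.05 that the adjusted threshold aims at. The changed genes were drawn from those with a mean FPKM of at least 1 and were given a log2 change of 2. The recovered shares therefore do not say how often smaller changes, or changes at lower levels, would be found. The depth is unknown. Positions came from GENCODE M21 and promoters from RefSeq (GRCm38.p6). Further computing used Python 3.11.15 with pandas 2.3.3, numpy 2.4.6 and scipy 1.17.1, and figures were drawn in matplotlib 3.10.9.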

Additional observations from a re-analysis of the deposited data

Results flagged for a closer look

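Of the Hedgehog pathway genes, Kif3a and Evc were higher with NAD+ in every sample under proliferating conditions and lower in every sample under differentiation conditions, so their NAD+ effects had opposite directions. The log2 fold change of Kif3a, a subunit of the kinesin that builds cilia, was 0.38 under proliferating and -0.29 under differentiation conditions. The difference of -0.67, tested as a contrast over all 12 samples, had an unadjusted limma p of 0.00669 and an adjusted p of 0.164. Evc, a ciliary protein that binds Smoothened, had log2 fold changes of 0.18 and -0.15, a difference of -0.34 with an unadjusted limma p of 0.0149 and an adjusted p of 0.215. Neither difference passed the adjusted threshold, and 0.467% of all tested genes did. Over all tested genes the median difference was -0.16 as deposited and -0.01 after median-ratio scaling. Without proliferating Ctrl sample 1, the value of Kif3a under proliferating conditions was 0.19 and its difference -0.48 (limma adjusted p = 0.0864), and after median-ratio scaling or quantile normalization its fall under differentiation conditions no longer passed. Of the 17558 genes tested in both conditions, 2.01% were likewise higher and then lower without overlap, beside 2 of 47 pathway genes. The 7 core genes had no such pair of opposite directions without overlap.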

How the results depend on the processing

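Counts of called Hedgehog genes were set against their values under another filter, added number, scaling or fit. Of 120 such comparisons, 110 stayed within 1.5 times the reported count and 10 moved. Without single samples, 124 comparisons stayed and 20 moved. Several reported counts were 0, and a count that remained 0 entered as unchanged. The tallies therefore say little about the calls that were made. With a minimum mean FPKM of 1, the calls among the 7 core genes by adjusted p were 1 for NAD+ under differentiation conditions and 1 for differentiation in the NAD+ samples, in place of 0 and 3, and the DEGs were 0 in both, in place of 1 each, because Hhip is then not tested. Quantile normalization gave 5 core calls for differentiation in the NAD+ samples. Without a filter, the DEGs among the core genes were 1 (Gli1) for differentiation in Ctrl and 2 in the NAD+ samples, since Gli1 is then tested. For NAD+ under differentiation conditions, the 6 calls among the further pathway genes were 2 without a filter, 2 with the replicate number as a block and 1 without moderation of the variance, and the cause was not tested. Samples with the same number deviated from their group means with low correlations across genes. These were 0.018 to 0.107 under proliferating and 0.029 to 0.053 under differentiation conditions (1 and 0 of 3 pairs over 0.1). In these deviations each Ctrl sample was most like the NAD+ sample of its own number, except proliferating Ctrl sample 3. The numbers were not taken as pairs, but pairing is not excluded. With the block, 275 of all tested genes rose and 483 fell with NAD+ under differentiation conditions, in place of 445 and 912. Under proliferating conditions 0 passed, in place of 9 rises and 18 falls. The block changed no other count of Hedgehog genes beyond 1.5 times.

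Leaving out single samples gave 0 to 3 of these pathway calls, 0 to 1 core DEGs for the difference of the NAD+ effect, and core calls of 1 to 2 for differentiation in Ctrl and 1 to 3 in the NAD+ samples. The log2 fold change of some core genes turned sign. With NAD+ under proliferating conditions, leaving out single samples gave -0.23 to 0.12 for Gli2 and -0.27 to 0.0050 for Ptch1. Under differentiation conditions it gave -0.18 to 0.081 for Gli1, -0.097 to 0.25 for Gli2, -0.028 to 0.17 for Ptch1 and -0.045 to 0.010 for Smo, and median-ratio scaling and quantile normalization gave 0.018 and 0.089 for Gli1 and 0.068 and 0.029 for Smo. For the difference of the effect, Gli2 ranged from -0.077 to 0.32. With differentiation in Ctrl, Gli3 was -0.0068 with 1 added, -0.14 after quantile normalization and -0.32 to 0.23 without single samples, and Ptch1 was 0.024 after quantile normalization. In the NAD+ samples, median-ratio scaling gave 0.046 for Gli2, 0.26 for Ptch1 and 0.26 for Smo, quantile normalization 0.39 for Ptch1 and 0.44 for Smo, and leaving out single samples -0.39 to 0.0036 for Gli2, -0.065 to 0.0088 for Ptch1 and -0.049 to 0.013 for Smo.

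The limits are the 3 samples per group, the unknown depth behind FPKM values as low as those of Gli1 and Hhip, the rounding of the values to 0.01, and the separate tables of the conditions.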
